A study of Mus musculus with 21 samples.

Results

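Mitochondria carry ribosomes of their own, which translate only the few proteins encoded in mitochondrial DNA, all of them subunits of the respiratory chain and the ATP synthase. The RNA of these mitoribosomes is transcribed in the organelle, but their proteins are encoded in the nucleus, made in the cytosol and imported, with Mrpl symbols for the large subunit and Mrps symbols for the small subunit. Erythroid precursors rely on active mitochondria for heme synthesis and remove them before the red cell is complete, whereas mature neutrophils hold few mitochondria and live largely on glycolysis. The 78 genes described here are all those whose symbol, taken from the RefSeq accession of an array probe, was Mrpl or Mrps followed by a number and at most 1 letter from a to c. They comprised 49 Mrpl and 29 Mrps symbols, among 14315 symbols tested, and all 78 such symbols of the RefSeq table used for names had a probe. The symbols do not follow the subunits in every case: the Mrps18a and Mrps30 proteins lie in the large subunit, the Mrpl58 protein is also a peptidyl-tRNA hydrolase, and the Mrps36 protein is now known as a part of the 2-oxoglutarate dehydrogenase complex.

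The samples were primary hematopoietic cells that had been sorted from C57BL/6 mouse bone marrow, with no treatment stated, and 150 ng of total RNA from each sample was labeled with Cy3 and hybridized alone, together with synthetic spike-in RNAs, to 1 of 21 arrays. Each of 7 fractions had 3 arrays: KLS (lin- ckit+ sca1+), the multipotent start of both lineages; the erythroid series PreMegE (lin- ckit+ sca1+ with CD150+ CD105- FGCrI/II-), CFUe (lin- ckit+ sca1+ with CD150- CD105- FCGrI/II-) and Ter119 (CD71+ Ter119+); and the myeloid series PreGM (lin- ckit+ sca1+ with CD150- CD105- FGCrI/II-), GMP (lin- ckit+ sca1+ with CD150- FCGrI/II+) and Mac1Gr1 (Mac1+ Gr1+). The labels thus give CFUe and PreGM the same surface phenotype and give Sca1 as positive in all 4 intermediate fractions. Nothing in the labels says that the 3 samples of a fraction came from separate animals, so p values measure the spread between these samples, which may be technical.

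Markers separated the fractions as labeled, with exceptions that touch the mature cells and KLS. The summed level of 9 erythroid genes (log2, with the 75th percentile of an array set to 0) lay between 6.70 and 6.82 in CFUe and between 1.78 and 2.27 in PreGM. The 3 Ter119 arrays held erythroid transcripts at 11.8 to 12.1, but their 12 granulocytic transcripts summed to 12.2 to 12.6, against 12.4 to 12.6 in Mac1Gr1, 9.82 to 9.95 in GMP and 2.47 to 5.38 in CFUe, and all 12 were well above background. B cell transcripts (7 genes) stood at 6.80 to 7.32 in Ter119, against 4.66 to 5.50 in Mac1Gr1. T cell transcripts (6 genes) stood at 3.59 to 3.73 in Ter119, against 2.79 to 3.11 in Mac1Gr1. In KLS, 9 macrophage transcripts summed to 5.08 to 6.55, against 4.22 to 5.06 in Mac1Gr1, 3.64 to 3.72 in Ter119 and -0.75 to -0.31 in CFUe. The granulocytic sum in KLS was 7.23 to 7.75, against 4.58 to 6.48 in PreMegE. In Mac1Gr1, 8 stem and multipotent transcripts summed to 5.22 to 5.53, against 5.63 to 5.74 in KLS and 2.48 to 2.59 in GMP. Such a sum follows its brightest genes. Against GMP, 3 of these 8 were higher and 3 lower in Mac1Gr1 (limma, adjusted p under 0.05 and at least 2-fold), against 29.1% and 27.6% of all probes. The part of these other transcripts in the results below was not tested. In sorted populations measured in bulk, fewer cells of a type and less RNA per cell cannot be told apart.

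Most members moved together, so their promoters are described first. RefSeq promoter windows (GRCm38.p6, 300 bases around the start, most of them upstream) were found for 69 of the 78 genes, and 6 short motifs were searched on both strands. CCGGAAG, the core bound by the GABP type of ETS factor, a known regulator of nuclear genes for mitochondria, was present in 26 of 69 member promoters (37.7%), against 17.5% of 11445 genes tested on the arrays and 9.93% of all 27025 genes with a promoter window. AAGATGGCG, the core bound by YY1, was present in 8 (11.6%), against 3.07% of tested and 1.64% of all genes, and GCGCATGC, bound by NRF1, was also present in 8, against 5.20% and 3.05%. The E-box of the MYC type, with the letters CACGTG, was found in 5 members (7.25%), against 11.0% of tested genes. The GATA consensus, with the letters AGATAAG, was found in 3 (4.35%), against 2.70%. The extended ETS core bound by PU.1, with the letters GGAAGTG, was found in 13 (18.8%), against 15.9%, and it can overlap the GABP type of core. These matches are descriptions of the letters and not binding sites. The 26 members with CCGGAAG and the 43 without it had similar median changes in the step from PreMegE to CFUe, 1.06 and 1.13 on the log2 scale. Their medians were -2.20 and -2.43 from CFUe to Ter119, and -1.59 and -1.91 from GMP to Mac1Gr1. These differences were not tested.

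The promoters of 5 genes are shown with all matches to the 6 motifs, on either strand, in capitals, for the 3 S18 paralogs, which come from 1 protein family and diverge in the mature cells, and for Mrpl33 and Mrpl52, whose patterns depart from the rest. Mrps18a lies at chr17:46110754-46111053 on the plus strand, Mrps18b at chr17:35916391-35916690 on the minus strand, Mrps18c at chr5:100798509-100798808, Mrpl33 at chr5:31613701-31614000 and Mrpl52 at chr14:54426659-54426958, the last 3 on the plus strand, each written from 5′ to 3′ in the direction of the gene.
Mrps18a: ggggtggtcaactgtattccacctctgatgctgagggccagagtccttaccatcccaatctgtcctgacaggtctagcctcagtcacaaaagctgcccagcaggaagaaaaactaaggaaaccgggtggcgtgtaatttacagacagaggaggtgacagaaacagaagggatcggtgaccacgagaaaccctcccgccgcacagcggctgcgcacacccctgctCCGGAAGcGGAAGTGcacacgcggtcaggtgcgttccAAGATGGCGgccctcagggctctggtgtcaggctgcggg
Mrps18b: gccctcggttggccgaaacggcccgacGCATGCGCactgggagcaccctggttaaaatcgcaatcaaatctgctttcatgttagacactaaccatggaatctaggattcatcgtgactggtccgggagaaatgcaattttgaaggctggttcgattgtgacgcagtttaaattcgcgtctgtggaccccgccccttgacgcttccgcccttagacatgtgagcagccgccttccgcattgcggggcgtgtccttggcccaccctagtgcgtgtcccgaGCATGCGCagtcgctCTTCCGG
Mrps18c: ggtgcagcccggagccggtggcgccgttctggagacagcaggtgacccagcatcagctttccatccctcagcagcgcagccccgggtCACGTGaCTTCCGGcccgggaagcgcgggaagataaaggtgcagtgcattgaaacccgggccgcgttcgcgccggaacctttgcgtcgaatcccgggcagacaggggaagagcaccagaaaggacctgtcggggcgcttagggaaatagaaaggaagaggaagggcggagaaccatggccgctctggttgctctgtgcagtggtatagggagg
Mrpl33: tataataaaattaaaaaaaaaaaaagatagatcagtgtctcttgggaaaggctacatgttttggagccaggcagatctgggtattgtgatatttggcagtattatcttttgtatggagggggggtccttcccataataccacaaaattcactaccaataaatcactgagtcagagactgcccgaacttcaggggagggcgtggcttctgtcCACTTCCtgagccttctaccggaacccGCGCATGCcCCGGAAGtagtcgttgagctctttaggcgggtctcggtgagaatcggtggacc
Mrpl52: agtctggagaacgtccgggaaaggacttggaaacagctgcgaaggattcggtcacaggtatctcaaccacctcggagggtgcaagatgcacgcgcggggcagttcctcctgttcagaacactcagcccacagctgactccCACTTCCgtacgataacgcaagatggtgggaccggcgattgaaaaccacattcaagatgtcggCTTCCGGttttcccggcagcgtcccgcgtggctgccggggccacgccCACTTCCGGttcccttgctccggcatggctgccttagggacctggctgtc
Read with either strand, Mrps18a held 1 match each to the GABP type of core, the PU.1 motif and the YY1 core. Mrps18b held the NRF1 motif at 2 places and the GABP type of core at its end, Mrps18c held the E-box beside the GABP type of core, and Mrpl33 held the NRF1 motif beside that core, with the PU.1 motif upstream. Mrpl52 held the GABP type of core and the PU.1 motif at 2 places each, in 1 of which they overlapped.

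The family was highest in CFUe, or in GMP when scaled to the spike-ins, and lowest in both mature fractions. All 78 members were well above background on all 21 arrays, so no value below is a bound. The median of the 78 members on the CFUe arrays was 3.64, 3.78 and 3.81 on the log2 scale, where 0 is the 75th percentile of an array. It was 2.46, 2.35 and 2.78 in KLS, 2.74, 2.93 and 2.64 in PreMegE, 3.15, 3.14 and 3.09 in PreGM, and 3.29, 3.33 and 3.16 in GMP. It was 1.23, 1.75 and 1.61 in Ter119 and 1.25, 1.34 and 1.36 in Mac1Gr1. The CFUe arrays thus lay above all others, the Ter119 and Mac1Gr1 arrays below all others and overlapping each other, and PreMegE overlapped KLS. Of the 78 members, 75 had their highest fraction mean in CFUe, 2 in GMP (Mrpl43 and Mrpl44) and 1 in Mac1Gr1 (Mrpl33). The lowest mean was in Mac1Gr1 for 46 members, in Ter119 for 26 and in KLS for 6. All 78 differed among the fractions by limma's moderated F test (largest adjusted p = 3.3e-05), as did 94.7% of all 29532 probes tested, a share so high that the count says little about the members.

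**Figure D1:**
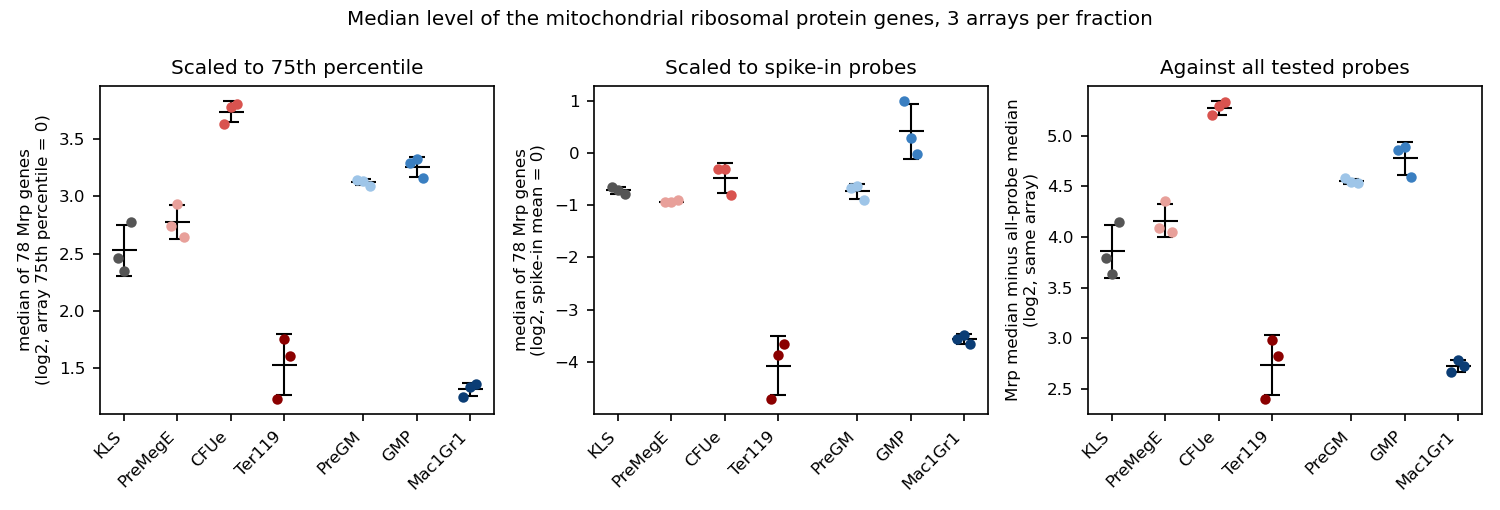
Median level of the 78 Mrp genes on each array (points), with the mean and SD of 3 arrays (bars), by fraction. The left panel is on the log2 scale with the 75th percentile of an array at 0, the middle panel is relative to the spike-in probes, and the right panel subtracts the median of all tested probes of the same array. CFUe is highest in the left and right panels (means 3.74 and 5.28) and GMP in the middle panel (mean 0.42), and Ter119 and Mac1Gr1 are lowest in all 3.

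The size of each change depended on the reference. Scaling to 7 spike-in sequences, which were added to a fixed mass of RNA, put the member medians at 1.0, 0.28 and -0.03 on the GMP arrays and at -0.31, -0.31 and -0.81 on the CFUe arrays, so that GMP was highest. Ter119 (-4.71, -3.86 and -3.65) and Mac1Gr1 (-3.55, -3.47 and -3.66) remained lowest. This scaling moved all probes together: the median change of all tested probes from PreGM to GMP was -0.02 with the 75th percentile and 0.99 with the spike-ins. A difference within an array is free of this choice. The member median minus the median of all tested probes was 3.86 ± 0.26 in KLS (SD, n = 3), 4.16 ± 0.17 in PreMegE, 5.28 ± 0.07 in CFUe and 2.74 ± 0.30 in Ter119, and 4.55 ± 0.02 in PreGM, 4.78 ± 0.16 in GMP and 2.73 ± 0.06 in Mac1Gr1.

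At the first erythroid step, from KLS to PreMegE, 1 member was called higher (adjusted p under 0.05 and at least 2-fold), against 3.55% of all probes, and none was called lower, against 8.86%. That member was Mrpl52, a large subunit protein, with levels of 5.69, 5.86 and 5.60 in PreMegE and 4.69, 4.31 and 4.87 in KLS, which did not overlap (2.13-fold, log2 change 1.09 ± 0.15 SE, limma adjusted p = 3.8e-05). With no minimum fold change, 13 members rose and none fell, against 13.4% of probes higher and 12.8% lower. The 13 became 1 with the slide as a block and 0 with the spike-ins, against 1.81% of probes. The median member change of 0.28 compares with 0.13 over all probes, and turned to -0.18 with the spike-ins. The Mrpl52 call was lost with the slide as a block (0.93), with the spike-ins (0.63, adjusted p = 0.14) and without KLS replicate 2. Macrophage transcripts were highest in KLS (above), and their part in this comparison was not tested.

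The second erythroid step, from PreMegE to CFUe, carried most of the rise. Of the 78 members, 50 were called higher, against 9.96% of all probes, and none was called lower, against 14.7%. With no minimum fold change 76 rose and none fell, against 27.3% and 23.6% of probes, and in 77 all 3 CFUe arrays lay above all 3 PreMegE arrays, against 30.8% of probes. The median change was 1.09 on the log2 scale, against 0.12 over all probes. Mrpl and Mrps genes moved alike, with medians of 1.16 and 1.05. On the 1 slide that held both fractions, 77 members were higher in CFUe, with a median difference of 1.20.

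The largest rise was that of Mrps22, a small subunit protein. Its levels were 1.88, 1.86 and 1.70 in PreMegE and 3.60, 3.76 and 3.64 in CFUe, a 3.61-fold difference (log2 1.85 ± 0.13 SE, adjusted p = 6.1e-09). Mrpl15, a large subunit protein, stood at 1.17, 0.77 and 0.65 in PreMegE and at 2.61, 2.70 and 2.67 in CFUe (3.49-fold, log2 1.80 ± 0.18 SE, adjusted p = 3.9e-07). Neither gene had overlapping fractions. Scaled to the spike-ins, 9 members were called higher, against 2.84% of probes. After quantile normalization 18 were called higher, with a median change of 0.73, against 0.10 over all probes.

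From CFUe to Ter119 nearly the whole family fell. Of 78 members, 76 were called lower, against 28.0% of all probes, and none was called higher, against 29.2%. The median change was -2.42, or -2.46 relative to the median of all probes. Mrps18b, 1 of 3 mammalian paralogs of bacterial S18, fell most: its levels of 1.84, 2.29 and 2.17 in CFUe became -2.49, -2.0 and -1.97 in Ter119 (19-fold, log2 change -4.25 ± 0.16 SE, adjusted p = 2.5e-13). Mrpl12, the stalk protein that contacts translation factors and is also known to bind mitochondrial RNA polymerase, went from 5.61, 5.88 and 5.84 to 1.22, 1.82 and 1.57 (18.9-fold, log2 change -4.24 ± 0.18 SE, adjusted p = 1.0e-12). The fractions lay far apart for both genes.

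Only 2 members were not called lower at this step. Mrpl43 fell by 0.91 on the log2 scale, short of 2-fold (adjusted p = 5.2e-06). Mrpl33 read 5.97, 6.26 and 6.35 in CFUe and 6.06, 6.35 and 6.14 in Ter119, which overlapped (log2 difference -0.01, 95% interval -0.35 to 0.33, adjusted p = 0.96). All 78 were called lower with the spike-ins, against 56.1% of probes. Granulocytic transcripts reached nearly the Mac1Gr1 level in the Ter119 arrays (above), and their part in the Ter119 values was not tested.

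In the myeloid series the rise was smaller on the 75th percentile scale, but with the spike-ins it was larger, with a median step of 1.23 from PreGM to GMP against 0.58 from PreMegE to CFUe. From KLS to PreGM no member was called at 2-fold, against 2.11% of probes higher and 6.53% lower, but with no minimum fold change 59 rose, against 14.0% of probes, and none fell, against 11.6%. The median change was 0.56 (0.06 over all probes), and in 67 members all PreGM arrays lay above all KLS arrays, against 22.6% of probes. With the slide as a block only 8 of the 59 passed. The comparison shares its KLS arrays with that of PreMegE, and scaled to the spike-ins its median change was -0.06 and 0 members rose, against 0.782% of probes.

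From PreGM to GMP no member was called at 2-fold, against 4.01% of probes higher and 6.36% lower. With no minimum fold change 11 rose, against 12.6% of probes, and 1 fell, against 13.7%. With the slide as a block 6 rose and 0 fell, and with the spike-ins 76 rose, against 66.9% of probes. The exception was Mrpl52, at 4.66, 4.71 and 4.57 in PreGM and 4.15, 4.09 and 3.94 in GMP, with no overlap (log2 change -0.59 ± 0.15 SE, adjusted p = 0.0094), but with the spike-ins its sign turned (0.43, adjusted p = 0.17). The median change was 0.22. Scaled to the spike-ins it was 1.23 and 74 members were called higher, against 47.5% of probes.

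From GMP to Mac1Gr1 64 members were called lower, against 27.6% of all probes, and 1 was called higher, against 29.1%. The median change was -1.90, or -2.08 relative to all probes, and members spread widely, from -4.41 to 1.13. Mrpl12 fell most, from 4.86, 4.97 and 4.77 in GMP to 0.24, 0.54 and 0.59 in Mac1Gr1 (21.2-fold, log2 change -4.41 ± 0.18 SE, adjusted p = 6.1e-13). Mrpl38, a protein at the central protuberance of the large subunit, fell from 1.48, 1.40 and 0.99 to -3.30, -2.78 and -2.48 (17.6-fold, log2 change -4.14 ± 0.20 SE, adjusted p = 5.4e-12). The fractions of both genes were well apart.

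Mrpl33, a small protein of the large subunit, was the 1 member called higher. It read 6.83, 6.95 and 6.70 in GMP and 7.80, 8.04 and 8.03 in Mac1Gr1, without overlap (2.19-fold, log2 change 1.13 ± 0.16 SE, adjusted p = 6.0e-06). Scaled to the spike-ins the sign turned (-0.90, adjusted p = 0.0029), where all probes fell by 1.86 in the median and 77 members were called lower, against 70.0% of probes. Relative to the median of all probes Mrpl33 was higher by 0.96. The call was also lost, with the same sign, with normexp background correction (0.99) and in the authors' series table (0.52). Of the other 13 members not called, 10 fell by less than 2-fold, and Mrpl10, Mrpl14 and Mrps21 missed the p threshold.

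**Figure D2:**
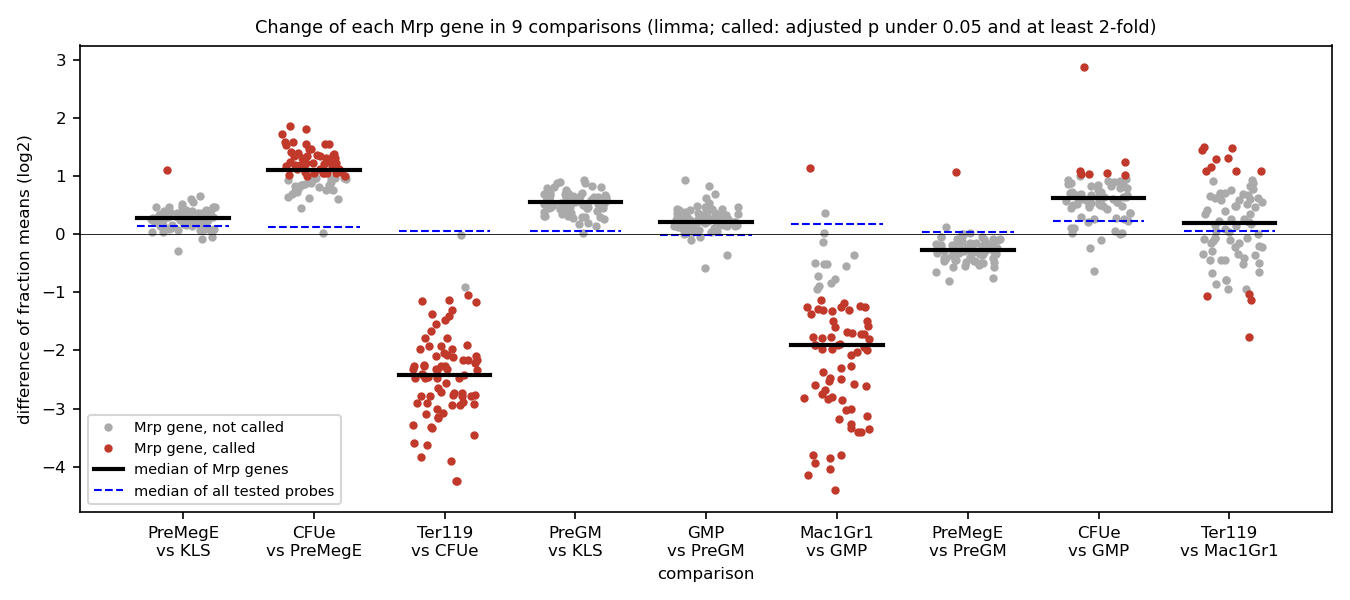
Difference of fraction means (log2, 75th percentile scale) for each of the 78 Mrp genes (points; red where called) in 9 comparisons, with the median of the members (black line) and of all tested probes (dashed line). Nearly all points lie above 0 from PreMegE to CFUe (median 1.09) and below 0 from CFUe to Ter119 (median -2.42), and Mrpl33 stands alone above 1 from GMP to Mac1Gr1.

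Between the lineages, the 2 early progenitors differed by less than 2-fold in nearly all members, with most lower in PreMegE. Against PreGM, PreMegE had 1 member called higher, again Mrpl52, with 5.69, 5.86 and 5.60 against 4.66, 4.71 and 4.57 (2.10-fold, log2 1.07 ± 0.15 SE, adjusted p = 5.3e-05), and none called lower, against 5.81% and 6.23% of probes. Without the 2-fold limit 18 members were lower and 1 higher in PreMegE, against 13.2% and 14.4% of probes. The 18 became 10 with the slide as a block and 0 with the spike-ins, against 5.48% of probes. In 46 members all PreMegE arrays lay below all PreGM arrays, as in 6020 of 29532 probes. The median difference was -0.28, against 0.03 over all probes. On the 2 slides that held both fractions the median difference was -0.14 and -0.41. Without PreMegE replicate 2 the difference of Mrpl52 was just under 2-fold (log2 0.996).

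CFUe exceeded GMP in 7 members called higher (Mrpl3, Mrpl9, Mrpl15, Mrpl47, Mrpl52, Mrps22 and Mrps36), against 12.1% of probes, a share of the family below that background. With no minimum fold change 63 were higher and 1 lower, against 32.2% and 21.7% of probes, and the median difference was 0.61. Mrpl52 stood furthest apart, at 6.73, 7.09 and 7.0 in CFUe and 4.15, 4.09 and 3.94 in GMP (7.35-fold, log2 2.88 ± 0.15 SE, adjusted p = 8.0e-11), followed by Mrps22 (2.36-fold, log2 1.24 ± 0.13 SE, adjusted p = 4.8e-07). Scaled to the spike-ins the median turned to -0.76, with 17 members called lower, against 57.4% of probes, Mrpl52 still called higher (1.5, against 2.32%) and Mrps22 at -0.14.

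The 2 mature fractions had similar medians, and the shares of the family called at 2-fold, in either direction, were below those of all probes. Ter119 exceeded Mac1Gr1 in 9 called members, against 22.0% of probes, and was lower in 4, against 19.9% (2 without Ter119 replicate 1). Without the 2-fold limit 33 were higher and 19 lower, against 32.9% and 33.2%, and with the slide as a block these were 26 and 12. The median difference was 0.19, and turned to -0.53 with the spike-ins, where 21 members were called lower, against 38.8% of probes. Mrpl38 was 2.82-fold higher in Ter119, at -1.60, -1.09 and -1.39 against -3.30, -2.78 and -2.48 (adjusted p = 4.7e-06). Mrps6, a small subunit protein, was 2.79-fold higher, at -0.26, 0.29 and -0.09 against -1.85, -1.50 and -1.16 (adjusted p = 3.4e-06). Mrpl33 was 3.42-fold lower in Ter119 (adjusted p = 5.2e-08) and Mrpl10 was 2.18-fold lower (adjusted p = 8.6e-07). The fractions overlapped in none of these 4 genes. The Ter119 arrays held granulocytic transcripts at nearly the level of Mac1Gr1.

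Whether the lineages moved differently was tested as an interaction. At the second step (PreMegE to CFUe against PreGM to GMP) 63 members rose more in the erythroid lineage and none less, at an adjusted p under 0.05, against 18.2% and 16.0% of all probes. The median difference of the changes was 0.93, or 0.79 relative to the median of all probes. The latter stayed at 0.79 with the spike-ins because a scaling of whole arrays cancels in it. Without that subtraction the spike-ins gave a median of -0.60, against -1.39 over all probes. No member was larger and 18 were smaller in the erythroid lineage, against 1.22% and 66.2% of probes. At the third step (CFUe to Ter119 against GMP to Mac1Gr1) 35 members changed less positively in the erythroid lineage and 3 more, against 28.9% and 26.0% of probes, with a median of -0.40. The 3 members became 1 without Ter119 replicate 2, GMP replicate 2 or Mac1Gr1 replicate 1, and 5 without Mac1Gr1 replicate 3. The main split went to 22 and 18 after quantile normalization, and to 0 and 6 with the spike-ins, against 6.72% and 31.8% of probes.

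Most members shared a pattern over the fractions but differed in amplitude. Over the 7 fraction means, the correlation of a member with the median of the other members had a median of 0.97. It exceeded 0.9 in 60 of 78 members, and no share of all probes stands beside this count. The correlations are given as a description, over 7 points that share arrays. Mrpl46 (r = 0.999), Mrps30 (0.998), Mrps7 (0.996) and Mrpl47 (0.995) followed the family most closely. The range between the highest and the lowest fraction mean had a median of 2.53 and ran from 1.06 to 5.32 on the log2 scale. Mrpl43 (1.06), Mrpl53 (1.14) and Mrpl10 (1.17) varied least, and Mrpl12 (5.32), Mrpl52 (4.91) and Mrps18b (4.84) most. The lowest correlations were those of Mrpl33 (-0.41), Mrps21 (0.21), Mrpl10 (0.37) and Mrpl43 (0.58).

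**Figure D3:**
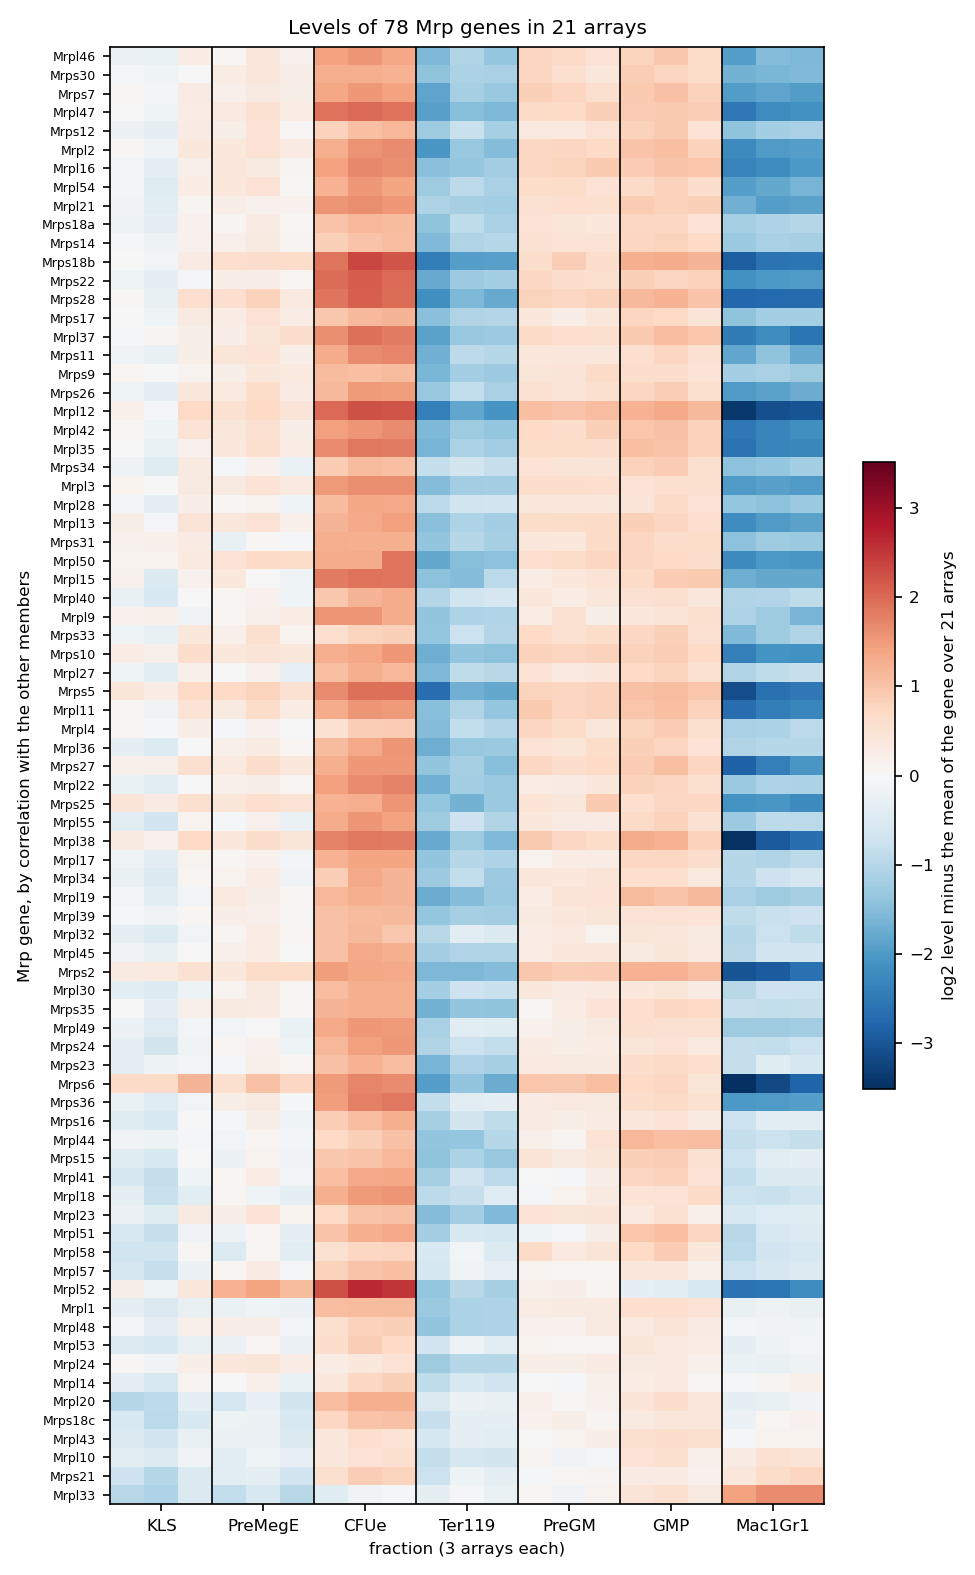
Level of each of the 78 Mrp genes (rows) on each of 21 arrays (columns, 3 per fraction), as the log2 level minus the mean of that gene over all arrays. Rows run from the member that follows the others most closely (Mrpl46, r = 0.999) to the one that follows them least (Mrpl33, r = -0.41). CFUe columns are red and Ter119 and Mac1Gr1 columns blue in nearly all rows, and the bottom rows lose the blue in Mac1Gr1.

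Mrpl10 and Mrpl12 encode the base and the flexible arms of the stalk of the large subunit, and sit together in it, but their transcripts diverged in the mature cells. Mrpl10 was 1.75, 1.87 and 1.93 in CFUe, 0.54, 0.79 and 0.72 in Ter119, 1.89, 1.93 and 1.55 in GMP and 1.67, 1.91 and 1.84 in Mac1Gr1. It fell in Ter119 (log2 change -1.17, adjusted p = 2.8e-07), while Mac1Gr1 and GMP overlapped (difference 0.02, 95% interval -0.26 to 0.29, and -2.02 with the spike-ins, where the median of all members was -3.94). The log2 ratio of Mrpl12 to Mrpl10, which no scaling of whole arrays can alter, was higher in CFUe than in KLS by 1.05 ± 0.08 (SD of the CFUe arrays, n = 3), and lower than in KLS by 2.02 ± 0.18 in Ter119 and by 4.22 ± 0.10 in Mac1Gr1. This pair was chosen after its values were seen, and no test was run on the ratio.

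The S18 paralogs showed the same contrast within 1 protein family. Mrps18b and Mrps18c encode proteins of the small subunit, and Mrps18a, as said, a protein of the large subunit. From GMP to Mac1Gr1 Mrps18b went from 1.18, 1.24 and 1.14 to -2.96, -2.66 and -2.62 (15.2-fold lower, adjusted p = 5.9e-13). Mrps18a went from 3.32, 3.34 and 3.07 to 1.44, 1.52 and 1.60 (3.30-fold lower, adjusted p = 7.0e-09). Mrps18c went from 3.86, 3.95 and 3.94 to 3.34, 3.60 and 3.70 (1.29-fold lower, adjusted p = 0.042). All 3 had fractions without overlap, and only the changes, not the levels, can be set beside each other between probes.

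In Ter119 against CFUe the same order held, with changes of -4.25 for Mrps18b, -2.25 for Mrps18a and -1.40 for Mrps18c. The log2 ratio of Mrps18b to Mrps18c was lower than in KLS by 2.35 ± 0.02 in Ter119 and by 3.44 ± 0.03 in Mac1Gr1, and in the other 4 fractions it stayed within 0.50 of KLS. At the preceding step, from PreMegE to CFUe, the 2 small subunit paralogs rose by 1.53 and 1.23.

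Mrps21, a small subunit protein, read 2.52, 2.83 and 2.74 in CFUe, 1.20, 1.79 and 1.64 in Ter119, 2.26, 2.24 and 2.12 in GMP and 2.36, 2.62 and 2.71 in Mac1Gr1. It thus fell in the erythroid series (log2 change -1.16, adjusted p = 4.1e-06), while in the myeloid series its difference of 0.36 missed the threshold (adjusted p = 0.052) and turned to -1.68 with the spike-ins. Mrpl52 was the member with the largest difference between the lineages at the second step (1.81). It rose at both early erythroid steps and then changed by -3.63 from CFUe to Ter119, where its mean of 3.31 lay below the 4.62 of KLS. In the myeloid series Mrpl52 did not pass the test from KLS to PreGM (0.03, 95% interval -0.30 to 0.35), and was lower in GMP than in PreGM and in Mac1Gr1 than in GMP. With the spike-ins its rises were 0.63 and 0.71, neither past the threshold, and its difference between PreMegE and PreGM was 1.22 (adjusted p = 0.0040).

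**Figure D4:**
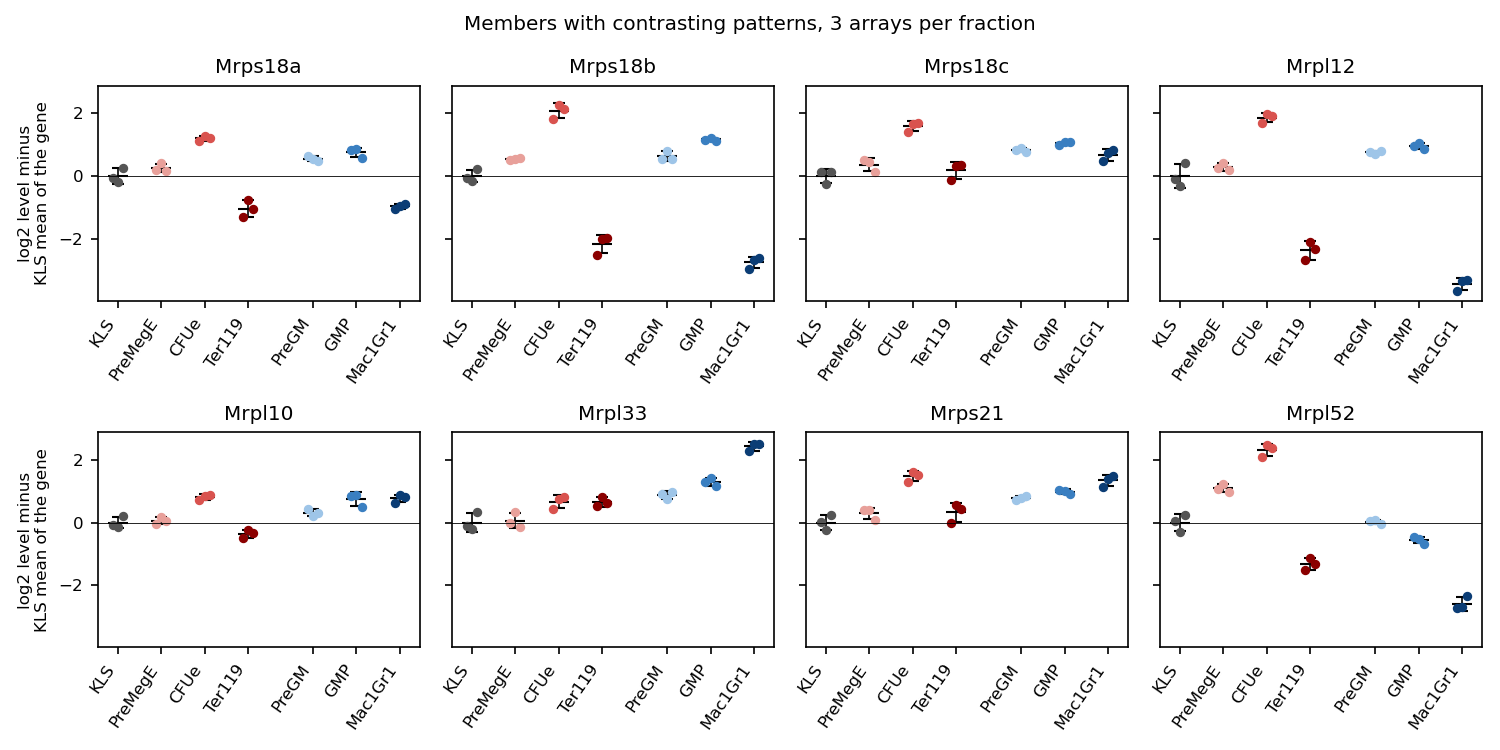
Log2 level of 8 Mrp genes on each array (points), minus the KLS mean of the same gene, with the mean and SD of 3 arrays (bars). The means of Mrps18b and Mrpl12 lie more than 2 below KLS in both mature fractions, Mrps18c and Mrpl10 stay within 1 of KLS there, Mrpl33 is highest in Mac1Gr1 and Mrpl52 rises in the erythroid fractions before Ter119.

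For 28 members the arrays carried more than 1 probe, 37 further probes in all. Of these, 30 correlated above 0.9 with the probe reported, over the 7 fraction means. Of the 36 further probes of genes called lower in Ter119 against CFUe, 34 also read lower there, and of 32 for genes called in Mac1Gr1 against GMP, 31 had the same sign. Mrps2, a small subunit protein, was the clearest disagreement among probes measured above background throughout: its reported probe fell from 2.06 in CFUe to -0.89 in Ter119, while the other rose from 0.82 to 1.21 and was at 0.16 in Mac1Gr1. Results on Mrps2 are therefore uncertain. Mrpl10, Mrpl12, Mrpl33, Mrpl52, Mrps18a, Mrps18b and Mrps21 each had 1 probe, so that their patterns rest on it. The second probe of Mrps18c and of Mrpl43 correlated above 0.9 with the first.

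Another 5 genes for mitoribosomal proteins carry other symbols, and followed the family at the erythroid steps. Dap3, a GTP-binding protein of the small subunit, Ptcd3, Chchd1 and Aurkaip1, also of the small subunit, and Gadd45gip1, of the large subunit, were all called higher in CFUe against PreMegE, by 1.02 to 1.45 on the log2 scale, and all lower in Ter119 against CFUe, with changes of -3.08 (Ptcd3) to -1.09 (Aurkaip1). The shares of all probes called in these 2 comparisons were 9.96% higher and 28.0% lower. With the spike-ins 0 of the 5 were called higher in CFUe (median 0.67), against 2.84% of probes. In Mac1Gr1 against GMP 3 of 5 were called lower, against 27.6% of probes. Dap3 fell by 0.31 on the log2 scale (adjusted p = 0.0079) and Aurkaip1 differed by 0.32 (adjusted p = 0.083), which turned to -1.72 with the spike-ins.

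Most other genes of the machinery also fell in the mature cells, and fewer of them reached a 2-fold call in CFUe. The shares of all probes to read these counts against were 9.96% called higher in CFUe against PreMegE, 28.0% called lower in Ter119 against CFUe and 27.6% called lower in Mac1Gr1 against GMP. Of 11 translation factors with a probe, 4 were called higher in CFUe against PreMegE, 10 lower in Ter119 against CFUe and 9 lower in Mac1Gr1 against GMP, with none in the opposite direction. With the spike-ins the members of a list called higher in CFUe fell from 4 to 1 for the translation factors, the synthetases and the assembly factors, and to 0 for the genes of mitochondrial DNA described below, against 2.84% of probes. With no minimum fold change, 7 of 11, 12 of 17, 10 of 16 and 9 of 10 genes of these 4 lists, in that order, were higher in CFUe, against 27.3% of probes. Of the translation factors, Tsfm, the exchange factor of mitochondrial EF-Tu, led with changes of 1.5, -4.0 and -4.45. Of 17 mitochondrial aminoacyl-tRNA synthetases, 4 were called higher in CFUe, and 15 were called lower and 1 higher at each maturation step. Yars2, for tyrosine, rose by 1.55 and then fell by 3.61 on the log2 scale. The exception was Lars2, for leucine, which rose by 1.26 in Ter119 (adjusted p = 2.7e-06) and by 1.27 in Mac1Gr1 (adjusted p = 2.6e-06), but read -0.12 and -0.76 with the spike-ins. It was named after its values were seen.

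Of 16 assembly and rRNA modification factors, 4 were called higher in CFUe, 14 lower in Ter119 and 11 lower in Mac1Gr1, with 1 called higher in each mature fraction. Fastkd2, an RNA-binding protein of mitochondrial granules, rose by 1.81 in CFUe and changed by -4.31 in Ter119 and -4.73 in Mac1Gr1. The factors called higher were Mrm1, a ribose methyltransferase of the large rRNA, in Ter119 (1.35) and Rbfa, a maturation factor of the small subunit, in Mac1Gr1 (1.49), whose values with the spike-ins were -0.03 and -0.55. Both were named after their values were seen. Of 10 genes for expression and upkeep of mitochondrial DNA, 4 were called higher in CFUe, 9 lower in Ter119 and 8 lower in Mac1Gr1. Tfam, the packaging and transcription factor of that DNA, changed by -2.51 from CFUe to Ter119 (adjusted p = 7.4e-12).

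Of 9 tested regulators of mitochondrial biogenesis, none was called in CFUe against PreMegE, 4 were called lower and 1 higher in Ter119, and 3 were called lower in Mac1Gr1. Of all probes, 28.0% were called lower and 29.2% higher in Ter119, and 27.6% were called lower in Mac1Gr1, so with 9 genes these counts are given as a description only. Myc, a growth regulator, changed by -3.70 in Ter119 (adjusted p = 7.1e-09) and -4.93 in Mac1Gr1 (adjusted p = 1.6e-10). Pprc1 and Ppargc1b, coactivators of the PGC-1 family, changed by -3.04 and -3.29 in Ter119 and by -3.81 and -3.29 in Mac1Gr1. These genes had the largest changes among those called. Over the 9 regulators the median change from GMP to Mac1Gr1 was -0.09, with 4 positive and 5 negative. With no minimum fold change 4 of the 9 were higher in CFUe against PreMegE, against 27.3% of probes.

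Cytosolic ribosomal proteins and the respiratory chain served as comparators. Of 75 cytosolic ribosomal protein genes, 2 were called higher in CFUe against PreMegE (median change 0.36, or -0.16 with the spike-ins), and 62 were called lower in Ter119 and 64 in Mac1Gr1 (medians -1.59 and -1.66), or 74 and 75 with the spike-ins. Of 78 tested subunits of oxidative phosphorylation, 47 were called higher in CFUe (median 1.11), 58 lower in Ter119 (-1.65) and 37 lower in Mac1Gr1 (-0.95). With the spike-ins these were 4 (0.60), 76 (-3.03) and 77 (-2.98). Of all probes, 9.96%, 28.0% and 27.6% were called in these 3 comparisons, and 2.84%, 56.1% and 70.0% with the spike-ins. Within arrays, the Mrp median minus the median of the oxidative phosphorylation genes moved by less than 0.15 among the 5 early fractions, from -2.16 ± 0.07 in CFUe to -2.02 ± 0.06 in PreGM, and was -2.41 ± 0.10 in Ter119 and -2.95 ± 0.04 in Mac1Gr1, whose arrays lay below all others. Differences between the lists were not tested.

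**Figure D5:**
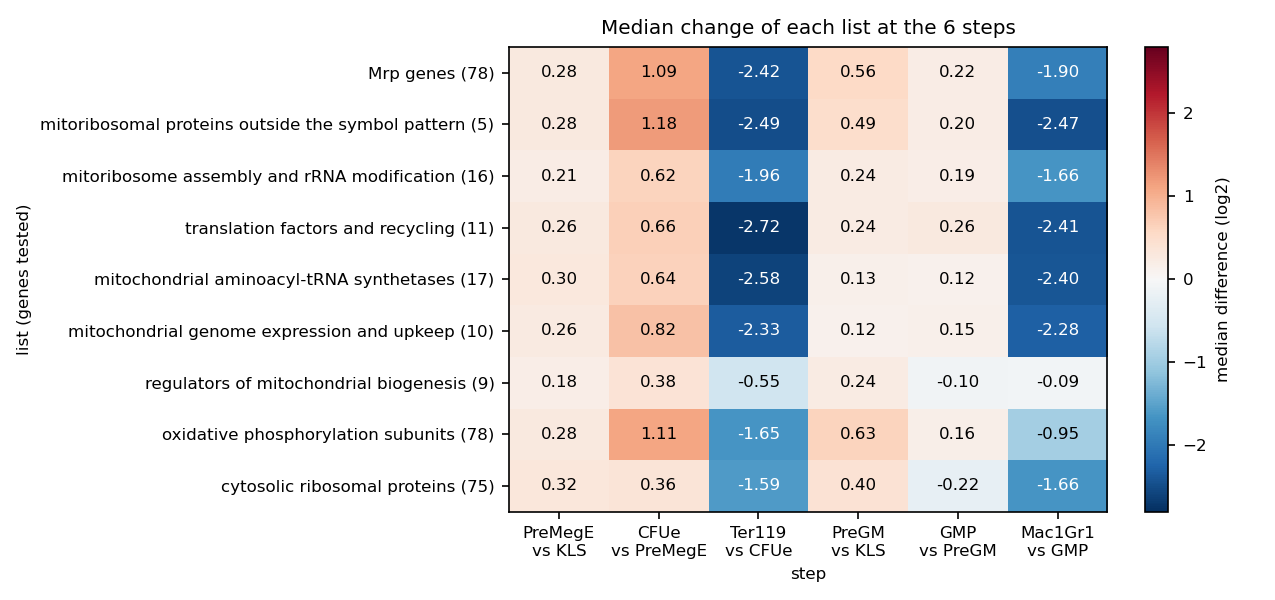
Median difference of fraction means (log2) at the 6 steps (columns) for the Mrp genes and 8 related lists (rows, with the number of genes tested). From CFUe to Ter119 the medians run from -2.72 for translation factors to -0.55 for regulators, and in CFUe against PreMegE only the first 2 lists and the oxidative phosphorylation subunits exceed 1.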

How the data were processed

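RNA of 21 sorted bone marrow samples was hybridized to Agilent one-color arrays, 1 sample per array. The deposited scanner files hold processed signal intensity, from which the authors' Feature Extraction software (Agilent Feature Extraction 10.7.1.1, per the file headers) had already subtracted background. A series table with log2 values was also deposited by the authors, and its ranks within each array matched the scanner values (rank correlation at least 0.99997), while its scale, centring and filters were not given in the sources used here. Outlier spots (80 to 283 per array) were left out, no spot was saturated, spots of a probe were averaged, and log2 intensity was reduced by the 75th percentile of each array.

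Of 41174 probes, 26690 (64.8%) were named through their RefSeq accession, with symbols from the RefSeq mouse gene table for GRCm38.p6. Tests covered the 29532 probes that some fraction measured well above background in each of its 3 arrays, and the brightest tested probe stood for a gene. limma (3.58.1, in R 4.3.3) fitted 1 mean per fraction over all 21 arrays, with 14 residual degrees of freedom per probe, and Benjamini-Hochberg adjustment ran over all tested probes. Calls needed an adjusted p under 0.05 with a change of 2-fold or more, and interactions the adjusted p alone. The fit was tested on simulated data. Other steps used Python 3.11.15 with numpy 2.4.6, pandas 2.3.3 and matplotlib 3.10.9. The number of arrays limits the precision.

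Alternatives were spike-in scaling (the mean of 7 of 10 spike-in sequences), normexp on median signal with an offset of 50, quantile normalization, the series table, no filter on dim probes, the mean of a gene's probes, no minimum fold change, the slide or the replicate number as a block, and each array left out in turn. Named by rule were up to 2 called members with the largest rise and the largest fall in each comparison, the 4 members most and the 4 least correlated with the median of the others, the 3 with the smallest and the 3 with the largest range, the S18 paralogs, the mitoribosomal genes outside the symbol pattern, and up to 3 called genes with the largest change in each related list. The members, gene lists and motifs were chosen with earlier results of these data known. Listed genes without a probe (Mtrfr, Mterf3, Mtg1, Mterf1a, Hbb-b1, Igll1 and Kit) went uncounted.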

Additional observations from a re-analysis of the deposited data

Results flagged for a closer look

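Members passed the interaction test at both steps, with counts that depended on the scaling, and these differences are given as values with no explanation. At the second step 63 of the 78 members rose more from PreMegE to CFUe than from PreGM to GMP, and 0 rose less. The shares of all probes were 18.2% and 16.0% (limma, adjusted p under 0.05). Among the 3 largest differences, Mrpl52 differed by 1.81 on the log2 scale (adjusted p = 7.1e-06), Mrps22 by 1.69 (adjusted p = 2.4e-06) and Mrpl47 by 1.40 (adjusted p = 2.6e-05). With the spike-ins the differences were 0.28, 0.16 and -0.13. Over the family, 0 members then rose more and 18 less, against 1.22% and 66.2% of probes.

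At the third step 3 members changed more positively from CFUe to Ter119 than from GMP to Mac1Gr1, and 35 less, against 26.0% and 28.9% of all probes. Both directions together, the share of members that passed was below that of all probes. With the spike-ins 6 changed more positively and 0 less, against 31.8% and 6.72% of probes. The 3 members of the main fit were Mrps2 (difference 1.1, adjusted p = 2.1e-05), whose probes disagree, Mrpl38 (0.80, adjusted p = 0.023) and Mrpl11 (0.65, adjusted p = 0.024). The last 2 lost the threshold without any 1 of 4 arrays each, among them Ter119 replicate 2 (0.67 and 0.53) and Mac1Gr1 replicate 1 (0.58 and 0.54). The largest differences in the other direction were those of Mrpl52 (-1.59, adjusted p = 1.1e-05), Mrps21 (-1.51, adjusted p = 2.5e-05) and Mrpl23 (-1.50, adjusted p = 4.8e-05), and with the spike-ins they were -0.94, -0.86 and -0.85.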

How the results depend on the processing

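The counts above depend on the 2-fold limit and on the scaling, and the causes were not tested. Shares of all probes are given only for the main fit and the spike-ins, so counts under other settings have no background beside them. With the spike-ins the members called higher were 0 in PreMegE against KLS (median -0.18), 9 in CFUe against PreMegE (0.58), 74 in GMP against PreGM (1.23), 0 in Mac1Gr1 against GMP (-3.94), 1 in CFUe against GMP, with 17 lower (-0.76), and 0 in Ter119 against Mac1Gr1, with 21 lower (-0.53). The medians became -3.80 in Ter119 against CFUe, -0.059 in PreGM against KLS and -0.12 in PreMegE against PreGM. The interactions went to 0 larger and 18 smaller at the second step and to 6 and 0 at the third. Among results named for a called difference, signs reversed for Mrpl33 in Mac1Gr1 against GMP (-0.90), Mrps22 in CFUe against GMP (-0.14) and the second-step difference of Mrpl47 (-0.13), beside those of Mrpl52, Lars2, Mrm1 and Rbfa given above.

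Quantile normalization and the series table, in that order, gave 0 and 0 called higher in PreMegE against KLS, 18 and 18 in CFUe against PreMegE (medians 0.73 and 0.73) and 2 and 2 in CFUe against GMP (0.40 and 0.39), with 1 called lower there in the series table. In Ter119 against Mac1Gr1 1 and 1 were called lower, and the series table called 0 higher in Mac1Gr1 against GMP. Their medians were -1.95 and -2.01 in Ter119 against CFUe, 0.37 and 0.36 in PreGM against KLS and 0.10 and 0.12 in GMP against PreGM, and quantile normalization gave -1.82 in Mac1Gr1 against GMP. The third-step interactions were 18 larger and 22 smaller, and 19 and 20, and quantile normalization gave 1 smaller at the second step. With the slide as a block 0 were called higher in PreMegE against KLS and 1 in GMP against PreGM, the CFUe against PreMegE median was 1.23 and the third step had 1 larger and 23 smaller. With normexp 0 were called higher in Mac1Gr1 against GMP, 3 in CFUe against GMP and 5 in Ter119 against Mac1Gr1. The mean of a gene's probes gave 1 called higher in GMP against PreGM and a median of -1.81 in Mac1Gr1 against GMP.

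With no minimum fold change, higher members numbered 13 in PreMegE against KLS, 76 in CFUe against PreMegE, 59 in PreGM against KLS, 11 in GMP against PreGM (1 lower), 63 in CFUe against GMP (1 lower) and 33 in Ter119 against Mac1Gr1 (19 lower), and 18 were lower in PreMegE against PreGM. Leaving out 1 array at a time, members called higher ranged from 0 to 1 in PreMegE against KLS (0 without KLS replicate 2), 0 to 4 in PreGM against KLS (4 without KLS replicate 3), 0 to 1 in GMP against PreGM, 0 to 1 in PreMegE against PreGM and 40 to 56 in CFUe against PreMegE. Members called lower ranged from 73 to 76 in Ter119 against CFUe, 64 to 65 in Mac1Gr1 against GMP and 2 to 5 in Ter119 against Mac1Gr1, and larger third-step changes from 1 to 5.

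Replicate numbers did not pair the samples: over 63 pairs of the same number, the correlation of deviations ran from -0.43 to 0.37, with 21 above 0.1. With the replicate number as a block, 50 members were called higher in CFUe against PreMegE, 76 lower in Ter119 against CFUe and 64 lower in Mac1Gr1 against GMP, and no count or named call changed. All members were well above background, so brightness limits none of them, and slide could be compared within slides in 4 of 9 comparisons.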
